A study of Mus musculus with 10 samples.

Results

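The genes described here encode proteins that write, read or remove acetyl and methyl marks at enhancers and promoters, or bring such enzymes there: *Ep300*, *Crebbp*, *Kat2a* and *Kat2b* (acetyltransferases), *Brd2* and *Brd3* (BET bromodomain readers), and *Kdm1a*, *Hdac3* and *Ncor1* (demethylase, deacetylase and corepressor). They were taken by symbol through their Ensembl gene IDs, and all 9 were present among the 55487 genes of the RNA-seq tables. The series maps R-loops in E14, a mouse embryonic stem cell line, with 10 samples in 6 groups. The other 7, all R-loop libraries, are not used in what follows. The 3 RNA-seq replicates are one group of untreated E14 cells grown in medium with 15% FBS, LIF, 3 µM of a GSK inhibitor and 1 µM of a MEK1/2 inhibitor. With a single group there is no control to set against it, so levels were compared between genes within libraries and between replicates. Nothing in the labels says whether the replicates came from separate cultures, so their spread may be partly technical.

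p300 and CBP are paralogous coactivators that acetylate the tails of histone H3 at active enhancers and promoters. GCN5 (*Kat2a*) and PCAF (*Kat2b*) are paralogous catalytic subunits of the SAGA and ATAC coactivator complexes and acetylate histone H3 mainly at promoters. BET proteins bind acetylated histones through paired bromodomains and bring elongation factors to chromatin. On the opposing side, LSD1 (*Kdm1a*) removes methyl marks of active enhancers from histone H3 within the CoREST complex, and HDAC3 is the deacetylase of the NCoR corepressor complexes, in which NCoR1 (*Ncor1*) activates it. In embryonic stem cells several of these factors act at enhancers of pluripotency genes, and LSD1 is needed to shut those enhancers down on differentiation.

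The estimated counts summed to 11420425 in replicate 1, 6467405 in replicate 2 and 5787357 in replicate 3. A floor of 3 counts was worth 0.263, 0.464 and 0.518 CPM, which divides a count by its library's total and leaves length uncorrected. All 8 pluripotency markers checked were expressed, from 16.6 TPM for *Klf4* to 554 TPM for *Dppa5a*. TPM, the other unit used, is a level scaled by gene length and library total. Of 12 lineage markers, 1 (*Gata2*, 1.92 TPM) reached a mean of 1 TPM, and the list summed to between 2.06 and 4.99 TPM per replicate. Of 8 fibroblast or feeder markers, 1 (*Thy1*, 2.50 TPM) did so, 4 (*Col3a1*, *Dcn*, *Lum* and *Postn*) had 0 counts in every replicate, and *Col1a2* had 0, 0 and 2 counts. *Eomes* (lineage) and *Pdgfrb* (fibroblast) lay just under 1 TPM, at 0.953 ± 0.106 and 0.977 ± 0.435 TPM (SD, n = 3). The feeder list summed to between 1.79 and 4.57 TPM, close to the lowest levels given below, such as the 2.02 TPM of *Crebbp* in replicate 3, and the part of other cells in those levels was not tested. In bulk RNA, fewer cells with a transcript and less of it per cell cannot be told apart.

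RefSeq promoter windows (250 bases before to 50 after a start, GRCm38.p6) were found for 8 of the 9 members, in 12 windows, and the entry for *Hdac3* was missing. The number of CG dinucleotides per window ran from 2 to 49, against a median of 7.0 over all 32851 windows. *Crebbp* had 49 CG in its window and *Brd3* 46, more than 98.98% and 98.35% of all windows, and *Ep300* had 30. *Kdm1a* had 29 and *Kat2a* 19. *Kat2b* was the poorest of the members by its best window, with 11 and 6 CG in its windows. *Ncor1* had 36 CG in one window and 2 in the other, and the 3 windows of *Brd2* held 14 to 32. The stretches of the *Kdm1a*, *Kat2a* and *Kat2b* windows that lie upstream of the start and outside every annotated exon are shown, because *Kdm1a* had the highest level per annotated coding length and the other two are the paralogs whose order changed between replicates. They are given 5′ to 3′ from RefSeq (GRCm38.p6), with CG in capitals.
Kdm1a (chr4:136602724-136602973, minus strand): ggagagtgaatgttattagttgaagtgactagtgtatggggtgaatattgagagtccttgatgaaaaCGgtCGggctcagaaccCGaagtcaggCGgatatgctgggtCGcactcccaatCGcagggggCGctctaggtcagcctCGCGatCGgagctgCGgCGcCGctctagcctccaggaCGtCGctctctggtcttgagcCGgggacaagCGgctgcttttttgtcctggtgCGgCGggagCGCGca
Kat2a (chr11:100712468-100712717, minus strand): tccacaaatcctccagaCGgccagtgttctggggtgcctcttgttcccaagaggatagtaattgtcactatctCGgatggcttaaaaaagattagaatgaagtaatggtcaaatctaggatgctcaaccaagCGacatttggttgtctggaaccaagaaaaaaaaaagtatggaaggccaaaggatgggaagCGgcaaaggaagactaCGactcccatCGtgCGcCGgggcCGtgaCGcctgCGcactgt
Kat2b (chr17:53566721-53566860, plus strand): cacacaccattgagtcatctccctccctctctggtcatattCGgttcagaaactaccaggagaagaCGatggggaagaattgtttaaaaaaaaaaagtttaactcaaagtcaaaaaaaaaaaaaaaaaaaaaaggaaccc
These stretches hold 21 CG in 250 bases, 11 in 250 and 2 in 140, respectively.

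Motifs were searched on both strands of the 12 member windows. The NRF1 motif was found in 1 window each of *Brd2* and *Kdm1a*, and in 4.6% of all windows. The ETS motif CCGGAAG was found in 1 window each of *Brd2* and *Ncor1*, against 8.86% of all windows, and the YY1 motif AANATGGCG in 1 window each of the same genes, against 2.38%. CCAAT was found in 1 window each of *Kat2b* and *Kdm1a*, against 37.4%. The CRE TGACGTCA (1.79% of all windows) and the TATA motif TATAAA (13.6%) were found in 0 of the 12. These are matches of letters within the windows only.

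All 9 members were expressed at a mean of at least 1 TPM, a level reached by 19.8% of all genes and 44.1% of protein-coding genes. The median of the members' mean TPM was 14.2, against 5.73 for the 9683 protein-coding genes at a mean of at least 1 TPM. On the log2(TPM + 1) scale the members' median exceeded that of these genes by 1.48, 1.15 and 0.68 in replicates 1, 2 and 3, a mean of 1.10 ± 0.40 (SD, n = 3). The comparison genes decide the size of this difference, which was 0.188 against genes at a mean of at least 5 TPM. No test was made of it, since the members are not replicates. The members' median of 14.2 TPM is the value of *Ep300*, which had 23.0 TPM in replicate 1 and 6.07 in replicate 3. Its TPM also depends on the length used for scaling, as described below.

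The corepressor and reader genes *Ncor1* and *Brd2* headed the order of TPM, and *Crebbp* and *Brd3* closed it. By mean TPM the order was *Ncor1*, *Brd2*, *Kdm1a*, *Hdac3*, *Ep300*, *Kat2a*, *Kat2b*, *Crebbp* and *Brd3*. A pair of neighbours was taken to differ beyond its spread where the log2 ratio had the same sign in all 3 replicates and its mean exceeded 2 SD. Of 8 neighbouring pairs, 2 did so, *Brd2* over *Kdm1a* by 0.59 ± 0.10 (SD, n = 3) and *Kdm1a* over *Hdac3* by 0.74 ± 0.20 (SD, n = 3) in log2 TPM. From *Hdac3* down, no neighbours were separated beyond their spread. Counts per longest coding transcript, described below, reversed the pair of *Brd2* and *Kdm1a*. *Kdm1a* was then the higher by 0.37 ± 0.11 (SD, n = 3) in log2, also beyond the spread.

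**Figure D1:**
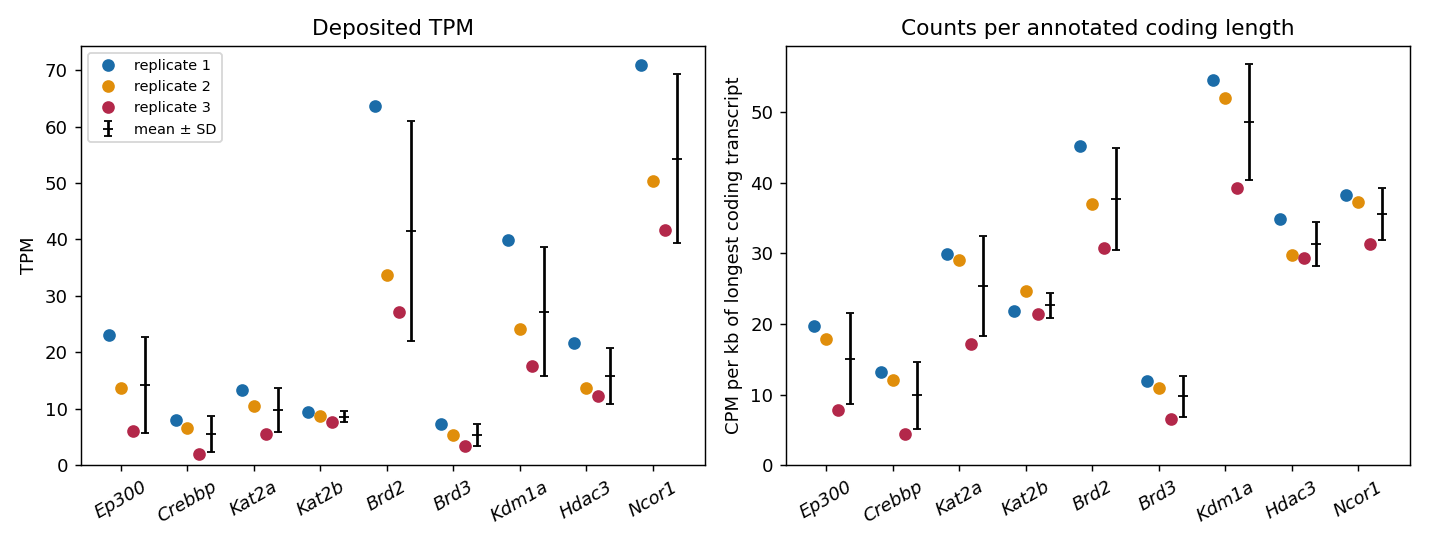
Levels of the 9 genes in each of the 3 RNA-seq replicates (coloured points) with mean ± SD (black), as deposited TPM on the left and as CPM per kilobase of the longest annotated coding transcript on the right. *Ncor1* is highest on the left at 54.3 TPM and *Kdm1a* on the right at 48.6 CPM per kilobase, and replicate 3 is the lowest for *Ep300* and *Crebbp* on both scales.

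Among the acetyltransferases, *Ep300* (ENSMUSG00000055024, chromosome 15, 81585351 to 81652077, plus strand) had 23.0, 13.6 and 6.07 TPM in replicates 1, 2 and 3, from 2150, 1105 and 432 estimated counts. *Crebbp* (ENSMUSG00000022521, chromosome 16, 4081328 to 4213997, minus strand) had 7.95, 6.60 and 2.02 TPM, from 1623, 848 and 278 counts. Both genes were lowest in replicate 3, and their values spanned 3.80-fold and 3.94-fold between replicates, where the median well-counted gene (protein-coding, averaging 100 counts or more) spanned 1.58-fold. Within each replicate *Ep300* exceeded *Crebbp*, with log2 TPM ratios of 1.52, 1.03 and 1.54, a mean of 1.37 ± 0.29 (SD, n = 3) or 2.58-fold. *Ep300* was thus the more abundant p300/CBP transcript in every library by this scale.

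*Kat2a* (ENSMUSG00000020918, chromosome 11, 100704746 to 100712465, minus strand) had 13.3, 10.5 and 5.52 TPM, from 1040, 574 and 303 counts. *Kat2b* (ENSMUSG00000000708, chromosome 17, 53566861 to 53672720, plus strand) had 9.49, 8.70 and 7.64 TPM, from 1162, 744 and 575 counts. *Kat2a* was the higher of the pair in replicates 1 and 2 and the lower in replicate 3. Their log2 TPM ratio was 0.48, 0.27 and -0.46, with a mean of 0.10 ± 0.50 (SD, n = 3), so no order of the 2 SAGA acetyltransferases held across replicates. Without length scaling the mean log2 ratio was -0.486, and without replicate 1 it was -0.096.

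The BET reader *Brd2* (ENSMUSG00000024335, chromosome 17, 34112023 to 34122634, minus strand) had 63.6, 33.7 and 27.1 TPM, from 2404, 1114 and 830 counts. Its paralog *Brd3* (ENSMUSG00000026918, chromosome 2, 27445579 to 27507662, minus strand) had 7.25, 5.41 and 3.39 TPM, from 740, 381 and 204 counts. The ranges of the 2 genes were far apart, and the log2 TPM ratio of *Brd2* to *Brd3* was 3.12, 2.62 and 2.96, a mean of 2.90 ± 0.26 (SD, n = 3) or 7.46-fold. The testis-enriched BET gene *Brdt* had 8, 6 and 7 counts, or 0.207 ± 0.015 TPM (SD, n = 3).

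*Kdm1a* (ENSMUSG00000036940, chromosome 4, 136550540 to 136602723, minus strand), the LSD1 demethylase, had 39.9, 24.1 and 17.6 TPM, from 1887, 1018 and 689 counts. *Hdac3* (ENSMUSG00000024454, chromosome 18, 37935844 to 37955016, minus strand), the deacetylase, had 21.6, 13.7 and 12.3 TPM, from 811, 391 and 345 counts. *Ncor1* (ENSMUSG00000018501, chromosome 11, 62316426 to 62458541, minus strand), the corepressor scaffold, had 70.8, 50.3 and 41.7 TPM, from 3946, 2176 and 1640 counts. The 3 ranges followed the order *Ncor1*, *Kdm1a*, *Hdac3* in every replicate, and only *Ncor1* did not overlap either of the others. *Kdm1a* exceeded *Hdac3* by 0.74 ± 0.20 (SD, n = 3) and *Ncor1* exceeded *Hdac3* by 1.78 ± 0.08 (SD, n = 3) in log2 TPM, or 1.67-fold and 3.43-fold. The second value depends on the short deposited length of *Ncor1*, and per longest coding transcript it was 0.18 or 1.14-fold.

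Each of the 5 ratios was tested by an exact two-sided sign-flip permutation test over the replicates, for which 0.25 is the smallest p with 3 replicates, so that no ratio could have passed a threshold of 0.05. That value was obtained for the 4 ratios with the same sign in every replicate (adjusted p 0.3125 over the 5 ratios), and the exact permutation p for *Kat2a* to *Kat2b* was 0.75. These p-values therefore decide nothing about the ratios, which are given by their size and SD.

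The length behind TPM differed widely from the annotated transcript for several members. RSEM, the quantifier named in the submitters' processing notes, reports a gene's length as a mean over its transcripts weighted by their estimated abundance. For *Ncor1* that length was 2192, 2424 and 2204 nt in replicates 1, 2 and 3, against 9037 nt for its longest annotated coding transcript, or 25.2% of it on average. *Brd2* stood at 37.0% and *Ep300* at 41.4% of the longest coding transcript, *Crebbp* at 67.7%, *Brd3* at 68.0%, *Kdm1a* at 71.0% and *Hdac3* at 78.6%. *Kat2b* and *Kat2a* were near their full length, at 96.0% and 99.2%. The median of the 7870 well-counted protein-coding genes was 79.8%.

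The annotation lists many short transcripts for the genes with the lowest percentages. *Ncor1* has 25 annotated transcripts, of which 14 are under 1000 nt and 8 are retained-intron models. *Brd2* has 19, with 13 under 1000 nt and 7 retained-intron models, and *Ep300* has 10, with 6 and 5. *Kat2a* has 4 transcripts, none under 1000 nt. *Kat2b* goes the other way, with 6 of 7 under 1000 nt and a deposited length at 96.0% of its longest coding transcript. *Kdm1a*, at 71.0%, and *Crebbp*, at 67.7%, also have many, with 5 of 9 and 4 of 8 under 1000 nt. *Brd3*, at 68.0%, has 3 of 10, and *Hdac3*, at 78.6%, has 2 of 6. Between replicates the deposited length of *Ep300* was 3578, 4425 and 3882 nt and that of *Brd2* 1530, 1889 and 1744 nt, each shortest in replicate 1. *Kdm1a* had 1882, 2375 and 2195 nt, again shortest in replicate 1. The coefficient of variation of length was 10.8%, 10.5% and 11.6% for these 3 genes and 4.34% for the median gene. How far the short models were truly transcribed was not tested.

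**Figure D2:**
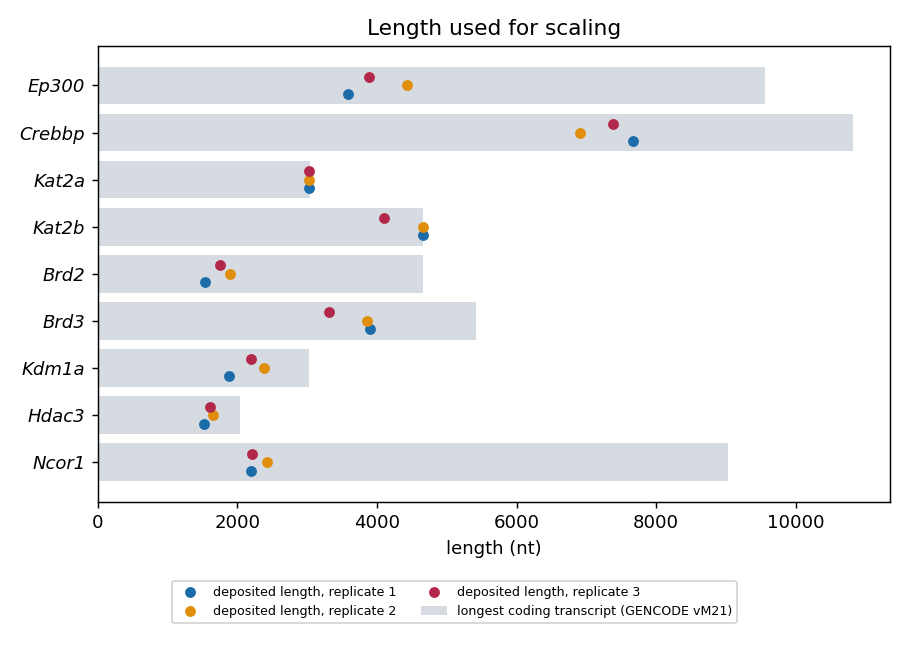
Deposited gene length in each replicate (points) over the length of the longest annotated coding transcript (grey bars), in nt, for the 9 genes. *Ncor1*, *Brd2* and *Ep300* were scaled by 25.2%, 37.0% and 41.4% of the annotated coding length, and *Kat2a* by 99.2%.

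Counts divided by the longest coding transcript gave another order, a scaling chosen after seeing the data. *Kdm1a* was then highest at 48.6 ± 8.16 CPM per kilobase (SD, n = 3), followed by *Brd2* at 37.7 ± 7.23, *Ncor1* at 35.6 ± 3.71 and *Hdac3* at 31.3 ± 3.13 (SD, n = 3). *Ep300* moved from rank 5 to rank 7, at 15.1 ± 6.40 CPM per kilobase, below *Kat2a* at 25.4 ± 7.13 and *Kat2b* at 22.6 ± 1.82 (SD, n = 3). *Crebbp* and *Brd3* stayed lowest, at 9.90 ± 4.75 and 9.78 ± 2.89 CPM per kilobase (SD, n = 3). On this scale *Ncor1* exceeded *Hdac3* by a log2 ratio of 0.18 ± 0.12 (SD, n = 3) in place of 1.78. The *Ep300* to *Crebbp* ratio became 0.65 ± 0.14 and the *Brd2* to *Brd3* ratio 1.98 ± 0.24 (SD, n = 3), both still of the same sign in every replicate.

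**Figure D3:**
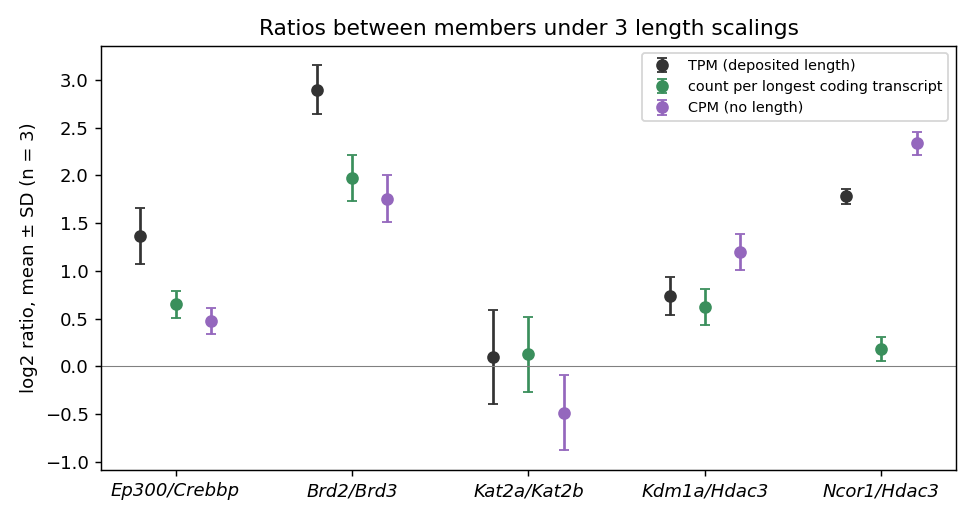
Log2 ratios between members as mean ± SD over 3 replicates under TPM, under counts per longest coding transcript, and under CPM without length. *Ep300* stays above *Crebbp* and *Brd2* above *Brd3* under all 3, *Ncor1* to *Hdac3* ranges from 0.18 to 2.34, and *Kat2a* to *Kat2b* runs from -0.49 to 0.13.

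Every member had its highest TPM in replicate 1 and its lowest in replicate 3, as did 71.9% of expressed protein-coding genes, so that pattern is mostly shared. Replicates were then compared on counts, in which the deposited length used for TPM plays no part. With library sizes scaled by TMM, 7 of the 9 were lowest in replicate 3, against 42.0% of well-counted protein-coding genes. The exceptions were *Kat2b*, at 97.4, 112.1 and 108.3 TMM-scaled CPM, and *Hdac3*, at 67.9, 58.9 and 65.0. *Ncor1* was the steadiest member, at 330.6, 327.9 and 308.9 TMM-scaled CPM.

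The acetyltransferase genes *Crebbp* and *Ep300* lay furthest below their own means in replicate 3. *Crebbp* had 136.0, 127.8 and 52.4 TMM-scaled CPM in replicates 1, 2 and 3, and *Ep300* had 180.1, 166.5 and 81.4. *Kat2a* had 87.1, 86.5 and 57.1, and *Brd3* 62.0, 57.4 and 38.4. For these 4 genes replicates 1 and 2 lay close together and replicate 3 stood below both. The remaining members spanned 1.07-fold (*Ncor1*) to 1.29-fold (*Brd2*), where the median gene spanned 1.22-fold.

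edgeR's goodness-of-fit test asked which genes had a larger replicate spread than the trend for their abundance, with Benjamini-Hochberg adjustment over the 12577 genes tested. *Crebbp* was the 1 member that passed, at an adjusted p of 0.00803, where 1.84% of all genes passed. *Ep300* did not pass, at an adjusted p of 0.084 and an unadjusted p of 0.00196. At an unadjusted p under 0.05 there were 2 members, against 6.96% of genes. The call of *Crebbp* rested on replicate 3, since its edgeR adjusted p was 0.999 without that library, 0.092 without replicate 2 and 0.0391 without replicate 1.

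Gene length moved with the low values of replicate 3, as did GC content among the longer genes. With well-counted genes in 10 classes of coding length, the median log2 deviation from the gene's own mean in replicate 3 ran from 0.18 in the shortest class to -0.14 in the longest. *Crebbp*, *Ep300* and *Ncor1* are in that longest class of 787 genes, with deviations of -0.88, -0.72 and -0.06. Classes by both length and GC, 5 of each, were added after seeing the data. In the longest of these the replicate 3 median ran from -0.016 at the lowest GC to -0.335 at the highest. In the shortest it ran the other way, from 0.106 to 0.157. *Crebbp* and *Ep300* have coding transcripts of 10820 and 9566 nt with 51.7% and 51.1% GC, in length class 5 (the longest) and GC class 4. The 231 genes of that joint class had a median log2 deviation of -0.27 in replicate 3, and 4.33% and 8.66% of them lay below *Crebbp* and *Ep300*, respectively. *Kat2a* lay at -0.40 in a class of 294 genes with a median of -0.08, and *Brd3* at -0.42 in a class of 281 with a median of -0.14. *Ncor1*, in length class 5 but with 48.5% GC, had its -0.06 in a class of 341 with a median of -0.18. After a smooth correction for coding length and GC together, chosen after seeing the data, the edgeR adjusted p of *Crebbp* was 0.148 and that of *Ep300* 0.649, with 1.79% of genes called. A correction for length alone used the mean deposited length in place of coding length. With it *Crebbp* was called at an edgeR adjusted p of 0.0236, among 1.49% of genes. These corrections thus differ in more than GC. The part of length and GC in the low values was not tested further.

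**Figure D4:**
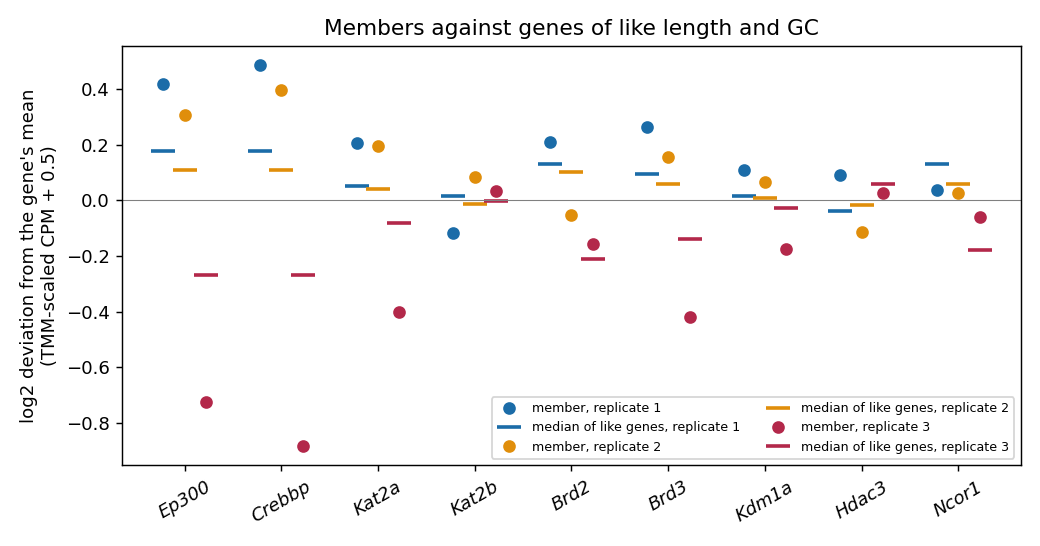
Deviation in log2 TMM-scaled CPM from a gene's own mean, by replicate, for the 9 genes (points) and for the median of protein-coding genes of the same coding length class and GC class (short lines). In replicate 3 *Crebbp* and *Ep300* lie at -0.88 and -0.72, where the median of their class is -0.27, and *Kat2b*, *Hdac3* and *Ncor1* lie near 0.

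The other genes of these pathways were described by level in 7 lists, with 68 genes reported. A mean of at least 1 TPM was reached by 60 of them, and their median was 5.17 TPM, against 14.2 for the members.

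Among 7 other acetyltransferases, all reached 1 TPM, from *Kat8* at 4.10 ± 1.09 to *Hat1*, the cytoplasmic histone acetyltransferase, at 66.2 ± 6.99 TPM (SD, n = 3). The 6 partners of p300 and CBP ran from *Cited4*, with 4, 1 and 0 counts, to the steroid receptor coactivator *Ncoa3* at 9.92 ± 3.54 TPM (SD, n = 3). *Cited1*, at 0.467 ± 0.222 TPM (SD, n = 3), was the other gene of that list under 1 TPM. SAGA and ATAC subunits, the complexes of *Kat2a* and *Kat2b*, reached 1 TPM in 18 of 19 cases. The deubiquitinase *Usp22* was highest there at 20.3 ± 7.06 TPM and *Atxn7* lowest at 0.770 ± 0.187 TPM (SD, n = 3).

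Of 12 other acetyl-lysine readers, 11 reached 1 TPM, with *Atad2* highest at 24.3 ± 6.05 TPM (SD, n = 3) and *Brdt* lowest. All 12 genes of the CoREST list, which also holds the *Kdm1a* paralog *Kdm1b*, reached 1 TPM. They ran from *Rcor3* at 1.48 ± 0.53 to the zinc finger gene *Zmym2* at 27.5 ± 4.29 TPM (SD, n = 3). In the NCoR list 3 of the 4 genes reported reached it, with *Tbl1xr1*, which encodes a core subunit of the complex, highest at 31.8 ± 4.62 and *Coro2a* lowest at 0.243 ± 0.102 TPM (SD, n = 3). The 8 other deacetylases (*Hdac4* to *Hdac11*) were the lowest list, with a median of 1.30 TPM and 5 genes at 1 TPM or more. *Hdac6*, the tubulin deacetylase, was its highest gene at 8.66 ± 4.15 TPM (SD, n = 3), and *Hdac9* had 5, 0 and 1 counts. *Hdac7* and *Hdac10* were the others under 1 TPM, at 0.467 ± 0.307 and 0.663 ± 0.235 TPM (SD, n = 3). The deacetylase genes *Hdac1* and *Hdac2* were counted in the CoREST list instead, at 22.45 ± 3.82 and 23.4 ± 3.14 TPM (SD, n = 3). The low median therefore does not cover them.

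**Figure D5:**
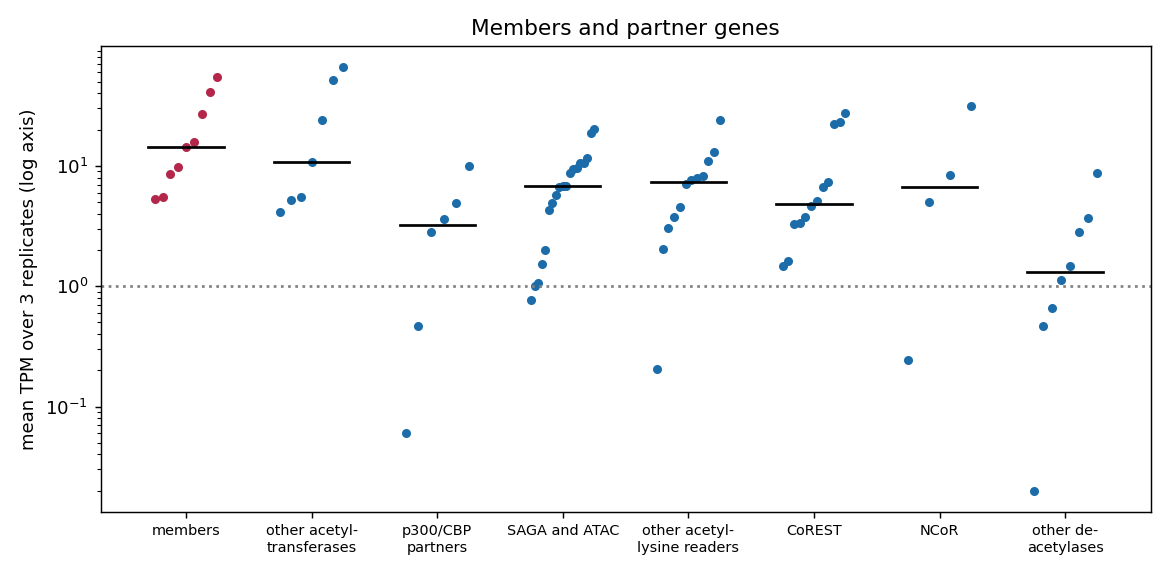
Mean TPM over 3 replicates, on a log axis, for the 9 members (red) and the genes of 7 partner lists (blue), with each list's median as a black line and 1 TPM as a dotted line. The members' median of 14.2 TPM, the value of *Ep300*, is the highest of the 8 columns. That of the other deacetylases, a list without *Hdac1* and *Hdac2*, is the lowest at 1.30 TPM.

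Genes most like each member were sought by Euclidean distance in log2(TPM + 1) over the 3 replicates. Among the partner lists, the acetyltransferase gene *Kat6a* was nearest to *Crebbp* at a distance of 0.412, with 7.68, 5.98 and 2.96 TPM. *Ncoa3* was nearest to *Kat2a* at 0.201, *Brd7* to *Kat2b* at 0.207 and *Gps2* to *Brd3* at 0.147. *Kat6b*, another acetyltransferase gene, was nearest to *Ncor1* at 0.162 and to *Brd2* at 0.814, and *Atad2* to *Kdm1a* at 0.395. *Yeats4* was nearest to *Hdac3* at 0.545 and to *Ep300* at 0.833. Over all well-counted protein-coding genes, *Cherp* was nearest to *Ep300* at 0.215, with 20.4, 13.4 and 6.76 TPM, and *Sipa1l3* to *Crebbp* at 0.102, with 7.56, 6.46 and 2.18 TPM. The nearest to the others were *Igf2bp3* (*Kat2a*), *4930453N24Rik* (*Kat2b*), *Anapc1* (*Brd2*), *Mosmo* (*Brd3*), *Sec31a* (*Kdm1a*), *Dusp11* (*Hdac3*) and *Degs1* (*Ncor1*), at distances from 0.0202 (*Mosmo*) to 0.268 (*Anapc1*). With 3 samples of one group such likeness is mainly one of level, and 44 genes lay within 0.5 of *Ep300* and 989 within 0.5 of *Brd3*.

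Of 27 estimated counts, 26 were whole numbers to 2 decimals, and the exception was *Ncor1* in replicate 2. *Brd2* shares 360 exonic bases of 7826 with *H2-DMa* on the opposite strand, which had 24, 14 and 15 counts, and 405 with an antisense gene at 0 counts. *Ncor1* shares 82 of 12811 with *Pigl*, also on the opposite strand, which had 250, 166 and 116 counts. It shares 1 more with *Ttc19*, on that strand too, at 227, 133 and 93 counts. Since the use of strand in counting is not given in the sources used here, reads in those bases cannot be told apart. The lowest count of any member was the 204 of *Brd3* in replicate 3, with an exact Poisson 95% interval of 177.0 to 234.0 that covers counting error only.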

How the data were processed

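Total RNA from E14 cells was depleted of rRNA and made into directional libraries, per the labels' protocols. STAR, RSEM and the build mm10 are named without versions in the submitters' processing notes, which also cover the R-loop libraries. The authors deposited, per the file headers, estimated counts (expected count) without normalization, TPM scaled by effective length, gene length, and FPKM, which was not used. Annotation release and strand setting are not given in the sources used here.

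IDs were matched to GENCODE vM21 (GRCm38), with 55227 of 55487 found. Estimated counts were rounded for edgeR 4.0.16 in R 4.3.3 (TMM, filterByExpr, intercept-only design, trended dispersion, goodness-of-fit test, Benjamini-Hochberg). The test was also run on counts simulated from its own fit with known changes. Those counts held no shift between replicates by length or GC, so that run does not cover one. Log2 ratios used TPM with a pseudocount of 0.1, levels log2(TPM + 1), and deviations TMM-scaled CPM plus 0.5. GC content and length are those of the longest coding transcript, except that the correction for length alone used the mean deposited length. Python 3.11.15, scipy 1.17.1, numpy 2.4.6, pandas 2.3.3 and matplotlib 3.10.9 did the rest, and DESeq2 1.42.0 size factors were an alternative.

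Genes named are the 9 members, the highest and lowest of each list, list genes under 1 TPM where these were 3 or fewer, and nearest genes. One gene of the partner lists is not reported here, so the lists' counts leave it out and no variability count is given for them. Members and lists were chosen with earlier results of these data known. The classes by length and GC, unlike those by length alone, were added after seeing the data. Other genes named, such as overlapping neighbours and markers, were chosen after their values were seen.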

Additional observations from a re-analysis of the deposited data

How the results depend on the processing

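The 5 ratios, the 3 summary values and the variability of 2 genes (10 results) were recomputed under 76 alternatives, of which 57 stayed within the allowed spread or on the same side of the threshold. Scaling by length moved the ratios most. With CPM and no length, log2 ratios were 0.474 for *Ep300*/*Crebbp*, 1.76 for *Brd2*/*Brd3*, 1.20 for *Kdm1a*/*Hdac3* and 2.33 for *Ncor1*/*Hdac3*, and *Kat2a*/*Kat2b* reversed to -0.486. Per longest coding transcript, 3 moved, to 0.652 for *Ep300*/*Crebbp*, 1.98 for *Brd2*/*Brd3* and 0.183 for *Ncor1*/*Hdac3*. These moves follow from the lengths used.

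Leaving out each replicate in turn gave 1.28 to 1.53 for *Ep300*/*Crebbp*, 2.79 to 3.04 for *Brd2*/*Brd3*, -0.096 (without replicate 1) to 0.377 for *Kat2a*/*Kat2b*, 0.664 to 0.848 for *Kdm1a*/*Hdac3* and 1.73 to 1.81 for *Ncor1*/*Hdac3*. The members' median lay 0.869 to 1.35 above that of expressed protein-coding genes in those fits, 0.188 with a filter of 5 TPM, 3.30 with no filter and 2.24 with CPM. All 9 members passed 1 TPM, or 1 CPM, in each alternative run for that count, and 5 TPM with all replicates. The number of varying members (1) was 0 after the correction for coding length and GC, chosen after seeing the data, and from 0 to 1 when replicates were left out. Without replicate 3 it was 0 by edgeR also at an unadjusted p under 0.05. Over all genes, 232 calls became 63 to 93 with a replicate left out, 187 with the deposited length correction and 225 with coding length and GC. *Crebbp* ranged from 0.00803 to 0.999 in adjusted p, highest without replicate 3, and the cause was not tested.

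No paired analysis was possible because the RNA-seq libraries form a single group with nothing to pair them to. Depth limits the low genes, since 3 counts are 0.518 CPM in replicate 3.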
